A study of Mus musculus with 12 samples.

Results

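The genes examined here were 10 basic leucine zipper (bZIP) transcription factor genes of the AP-1 and ATF group, namely Fos, Fosb, Fosl1, Fosl2, Jun, Junb, Jund, Atf3, Batf and Maff. They were chosen by family membership, and their probes were found through the accession or gene name printed beside each probe on the array. All 10 were present, as 12 of 41174 probes and 10 of 32301 genes or transcripts, because Fosl2 and Junb each had 2 probes. RNA was measured on 12 one-colour arrays of bone marrow-derived macrophages (BMDMs) from C57BL/6 mice aged 8 weeks, grown for 7 days with M-CSF. The genotypes were WT and Keap1 CKO (Keap1 flox/flox::LysM-Cre, written KpCKO below), in which the lysozyme M promoter drives Cre in myeloid cells and the loss of Keap1 leaves the transcription factor Nrf2 active. Cells of each genotype were left unstimulated (Con), received LPS and IFNg (M1) or received IL-4 (M2) for 6 h, which gave 6 groups of 2 arrays. Each of the 2 cultures held 1 WT and 1 KpCKO mouse, male mice in culture 1 and female mice in culture 2, so culture and sex cannot be told apart. The labels describe the WT mice only as WT, so whether they carried Cre is not stated, and M-CSF was withdrawn some hours before the stimuli.

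AP-1 factors bind DNA as dimers. Fos family proteins need a Jun partner, Jun proteins can also pair with each other, and both recognise the AP-1 site and the related cAMP response element (CRE). Atf3 is a stress-induced member that acts mainly as a repressor, Batf lacks a transactivation domain and pairs with Jun proteins beside IRF factors, and Maff is a small Maf protein that lacks such a domain and serves as a dimer partner of Nrf2 at the antioxidant response element (ARE). In macrophages these genes are classical early targets of Toll-like receptor and MAP kinase signalling, so the comparisons ask how each member differed between stimuli and between cells with and without Keap1.

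The stretch just before each RefSeq start on GRCm38.p6, as long as the sequences printed here, was searched on both strands, because these genes are known to respond to factors of their own family. The table held 11 windows from 9 of the 10 members, 3 of them for Maff, and Fosl1 had no entry. TGACG, the core of the CRE, was present in 7 of 11 windows, from 6 genes (Fos, Fosb, Junb, Atf3, Batf and Maff), against 12.5% of the 32851 windows of all genes. TGACNTCA, a longer CRE form that overlaps TGACG where N is G, was present in 3 windows, from Jun and Maff, against 5.43% of all. TGANTCA, the AP-1 site, was in 0 of the 11 windows and in 3.84% of all. The ARE core, TGAGNNNGC or TGACNNNGC, was found in 1 window of Maff and in 13.6% of all windows, and the NF-kB motif in another window of Maff and in 2.09% of all. A CArG box, the motif of serum response factor, was in 0 of the 11 windows and in 0.834% of all. With shares of all windows so low, 0 of 11 says little for the AP-1 site or the CArG box. Bases farther from the start were not searched. The hits are matches of letters and not measured binding sites. The stretches with TGACG or TGACNTCA in capitals are shown for Fos, Jun, Junb, Atf3 and Batf, each of which passed a test of stimulus. The Maff windows with TGACG and TGACNTCA are not shown. For Maff the outermost window is shown, in which the capitals mark its ARE cores. They lie at chr12:85473755-85473889 (Fos, plus strand), chr4:95052223-95052357 (Jun, minus strand), chr8:84978749-84978883 (Junb, minus strand), chr1:191183334-191183468 (Atf3, minus strand), chr12:85686585-85686719 (Batf, plus strand) and chr15:79346486-79346620 (Maff, plus strand).
Fos: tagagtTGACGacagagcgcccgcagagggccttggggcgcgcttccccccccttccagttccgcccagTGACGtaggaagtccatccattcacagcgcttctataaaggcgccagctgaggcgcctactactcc
Jun: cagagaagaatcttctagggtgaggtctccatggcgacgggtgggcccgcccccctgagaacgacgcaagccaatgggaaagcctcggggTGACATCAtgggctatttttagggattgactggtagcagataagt
Junb: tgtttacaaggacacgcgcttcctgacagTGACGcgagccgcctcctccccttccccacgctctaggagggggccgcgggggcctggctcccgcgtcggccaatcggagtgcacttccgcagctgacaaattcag
Atf3: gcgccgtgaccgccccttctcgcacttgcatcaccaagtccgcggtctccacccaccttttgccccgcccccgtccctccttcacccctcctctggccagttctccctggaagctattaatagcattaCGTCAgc
Batf: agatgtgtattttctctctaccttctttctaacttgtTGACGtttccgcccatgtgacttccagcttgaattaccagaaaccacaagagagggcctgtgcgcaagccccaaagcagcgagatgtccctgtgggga
Maff: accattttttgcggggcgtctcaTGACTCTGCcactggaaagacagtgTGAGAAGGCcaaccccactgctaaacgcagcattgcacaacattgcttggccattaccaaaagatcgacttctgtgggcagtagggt

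Levels are log2 signals relative to the array's 75th percentile, so 0 is that percentile and a step of 1 is a doubling. Levels of different probes are not comparable. Every member probe was well above background on all 12 arrays, and no spot was saturated. The targeted gene Keap1 differed by -1.46, -1.71 and -1.81 between KpCKO and WT under Con, M1 and M2, and Nqo1, a target of Nrf2, by 3.23, 3.50 and 3.52, with limma adjusted p of 0.0335 or less for each. All 8 matched macrophage markers were well above background in each group. All Con arrays lay on one slide, all M1 arrays on another and all M2 arrays on the third, so stimulus and slide cannot be told apart, while genotype was compared within a slide. The 75th percentile signal was 548 to 906 on M1 arrays and 966 to 1166 on the others, and the median of all genes differed by 0.13 between M1 and Con in WT and by 0.03 in KpCKO. The p-values rest on 2 cultures a group, and in RNA from a whole culture fewer cells of a type and less RNA per cell cannot be told apart.

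M1 stimulation moved the family apart: Maff, Batf, Junb and Jund rose in both genotypes, Jun fell in both, and Atf3 rose in WT. In WT 8 of 10 members passed the test (5 higher and 3 lower; limma adjusted p under 0.05), against a background of 63.2% of 22354 genes (34.5% higher and 28.7% lower). In KpCKO 6 of 10 passed (4 higher and 2 lower), against 50.2% of all genes (24.8% higher and 25.4% lower). With so high a background the count itself says little, and the members are described by size and direction. The median difference of the 10 members was 0.69 in WT and 0.37 in KpCKO. These counts and medians read Fosl2 by its brighter probe, as lower, although its other probe was higher, as described below.

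**Figure D1:**
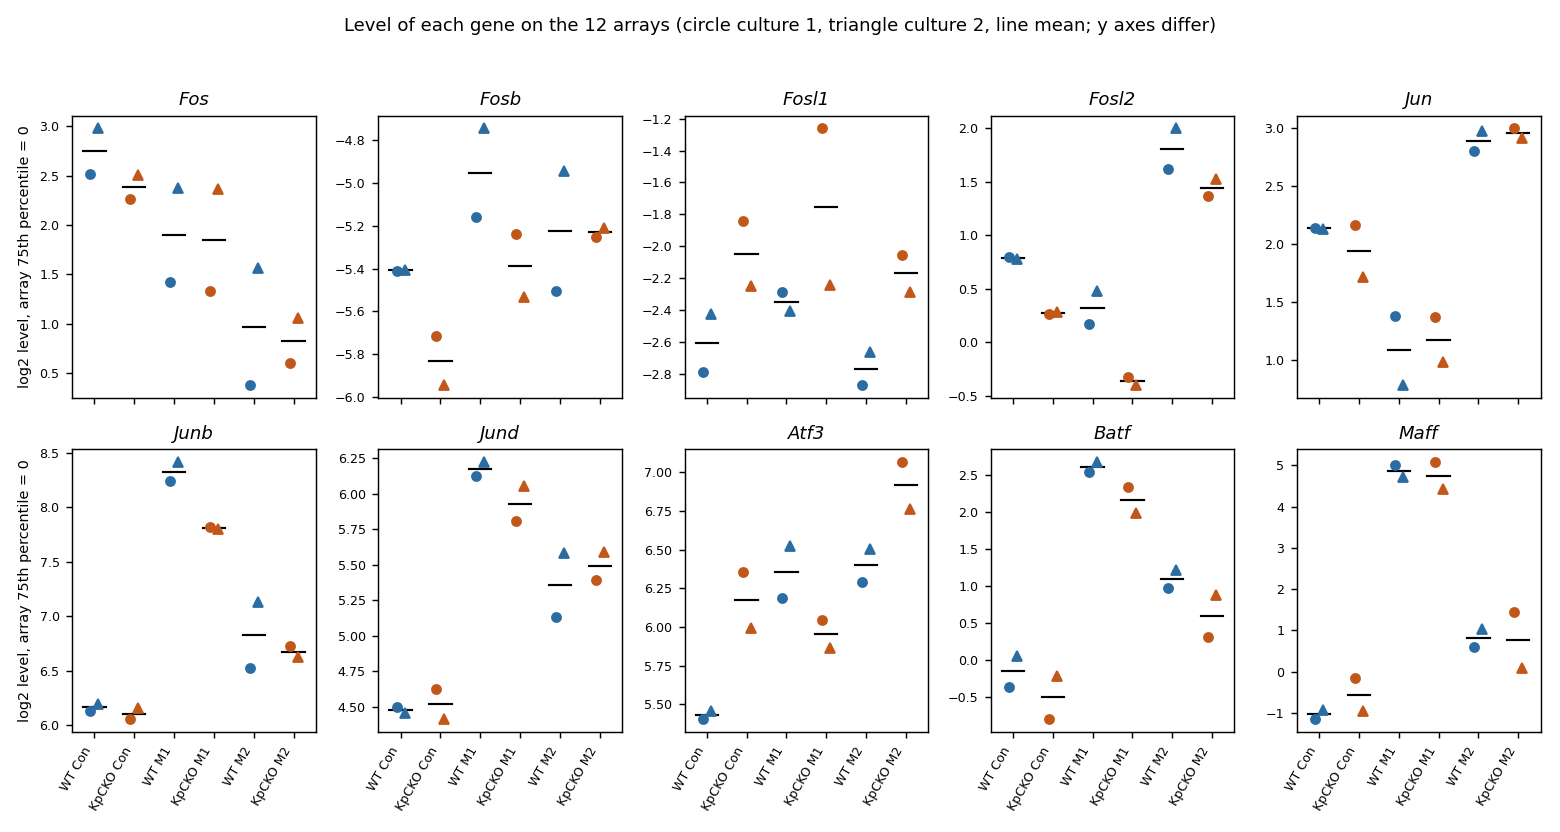
Level of each member (log2, array 75th percentile at 0, y axes differ) on the 12 arrays by genotype and stimulus, with circles for culture 1, triangles for culture 2 and a line for the mean of 2. Maff lies between 4.42 and 5.08 on the 4 M1 arrays and at -0.16 or lower on the 4 Con arrays. Fosl2 is shown by its brighter probe.

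Maff, the small Maf gene, gave the largest difference of the family. In WT its level was -1.15 and -0.93 in Con and 5.01 and 4.72 in M1, and in KpCKO it was -0.16 and -0.95 in Con and 5.08 and 4.42 in M1. The M1 arrays were far above the Con arrays in both cultures, with no overlap. Maff rose by 5.91 (SE 0.41) in WT (limma adjusted p = 3.56e-05) and by 5.30 (SE 0.41), 39.5-fold, in KpCKO (adjusted p = 9.46e-05).

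Batf, the partner of Jun at IRF sites, stood at -0.36 and 0.06 in WT Con and at 2.55 and 2.68 in WT M1. In KpCKO it stood at -0.80 and -0.21 in Con and at 2.35 and 1.99 in M1, so that all M1 arrays lay above all Con arrays. Batf rose by 2.76 (SE 0.23), 6.79-fold, in WT (limma adjusted p = 7.11e-05) and by 2.67 (SE 0.23), 6.39-fold, in KpCKO (adjusted p = 0.000139).

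Junb and Jund, the Jun proteins that are weaker activators than Jun, rose together. Junb was 6.13 and 6.20 in WT Con against 8.24 and 8.41 in WT M1, and 6.06 and 6.16 in KpCKO Con against 7.82 and 7.80 in KpCKO M1. This was a rise of 2.16 (SE 0.17), 4.48-fold, in WT (limma adjusted p = 5.95e-05) and of 1.70 (SE 0.17) in KpCKO (adjusted p = 0.000274). Jund was 4.50 and 4.45 in WT Con against 6.12 and 6.22 in WT M1, and 4.62 and 4.41 in KpCKO Con against 5.81 and 6.05 in KpCKO M1. It rose by 1.70 (SE 0.16), 3.24-fold, in WT (limma adjusted p = 0.000127) and by 1.41 (SE 0.16) in KpCKO (adjusted p = 0.000458). For neither gene did M1 and Con arrays overlap. Both are among bright probes, and quantile normalization, which forces all arrays to 1 distribution, reduced the WT differences to 1.24 for Junb and 0.93 for Jund, and those in KpCKO to 1.12 and 0.90. All 4 still passed the test.

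Atf3, the repressor, passed the test in WT, and this call depended on the scaling. Its level was 5.40 and 5.46 in WT Con and 6.19 and 6.52 in WT M1, whereas in KpCKO it was already 6.35 and 5.99 in Con and 6.04 and 5.86 in M1. The WT arrays did not overlap and the KpCKO arrays did. Atf3 rose by 0.92 (SE 0.19) in WT (limma adjusted p = 0.00454), while the KpCKO difference was -0.22 (SE 0.19, adjusted p = 0.375). With quantile normalization the WT difference was 0.08 (adjusted p = 0.667) and the KpCKO difference was -0.77 (adjusted p = 0.00572), so the size and the call, though not the direction, rest on the scale. The difference between the responses, KpCKO less WT, was -1.14 (95% interval -1.78 to -0.51) and was below 0 in both cultures, at -1.09 and -1.19. It had an unadjusted p of 0.00382 and an adjusted p of 0.157 in limma over all genes, and with quantile normalization it was -0.85 (adjusted p = 0.169).

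Of the genes that name the complex, Jun fell at 6 h of M1 in both genotypes and Fos in WT. Jun was 2.14 and 2.13 in WT Con against 1.38 and 0.79 in WT M1, and 2.17 and 1.71 in KpCKO Con against 1.37 and 0.98 in KpCKO M1. No M1 array reached a Con array of its genotype. Jun fell by 1.05 (SE 0.20) in WT (limma adjusted p = 0.00292) and by 0.76 (SE 0.20) in KpCKO (adjusted p = 0.0156), and the KpCKO call was lost without KpCKO Con replicate 1 (-0.63, adjusted p = 0.0975) or KpCKO M1 replicate 2 (-0.67, adjusted p = 0.0918). Fos was 2.52 and 2.98 in WT Con against 1.42 and 2.38 in WT M1, and 2.26 and 2.51 in KpCKO Con against 1.33 and 2.36 in KpCKO M1. Culture 2 was the higher in each of these groups, and the M1 arrays of KpCKO overlapped its Con arrays. Fos fell by 0.85 (SE 0.24) in WT (limma adjusted p = 0.0197) and gave -0.54 (SE 0.24) in KpCKO (adjusted p = 0.110). The WT call was lost without WT Con replicate 1 (-0.69, adjusted p = 0.116), without WT M1 replicate 1 (-0.71, adjusted p = 0.0998) or with no culture term in the fit (adjusted p = 0.185).

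Fosl2, which encodes Fra-2, was read by 2 probes that opposed each other in M1. The brighter probe was 0.80 and 0.78 in WT Con against 0.17 and 0.48 in WT M1, and 0.27 and 0.28 in KpCKO Con against -0.33 and -0.40 in KpCKO M1. The dimmer probe was -4.00 and -4.27 in WT Con against -2.38 and -1.75 in WT M1, and -4.41 and -4.55 in KpCKO Con against -3.01 and -2.72 in KpCKO M1. M1 and Con arrays did not overlap for either probe. By the brighter probe Fosl2 differed by -0.46 (SE 0.14) in WT (limma adjusted p = 0.0225) and by -0.64 (SE 0.14) in KpCKO (adjusted p = 0.00795), and by the dimmer probe by 2.07 (SE 0.22) in WT (adjusted p = 0.000185) and by 1.62 (SE 0.22) in KpCKO (adjusted p = 0.000877). The calls of the brighter probe were lost without WT Con replicate 1, WT Con replicate 2 or WT M1 replicate 1 in WT, and without KpCKO Con replicate 1 or KpCKO M1 replicate 2 in KpCKO. No direction is therefore given for Fosl2 under M1. Both probes carry the same transcript accession, and their positions in it are not given in the files used here.

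**Figure D2:**
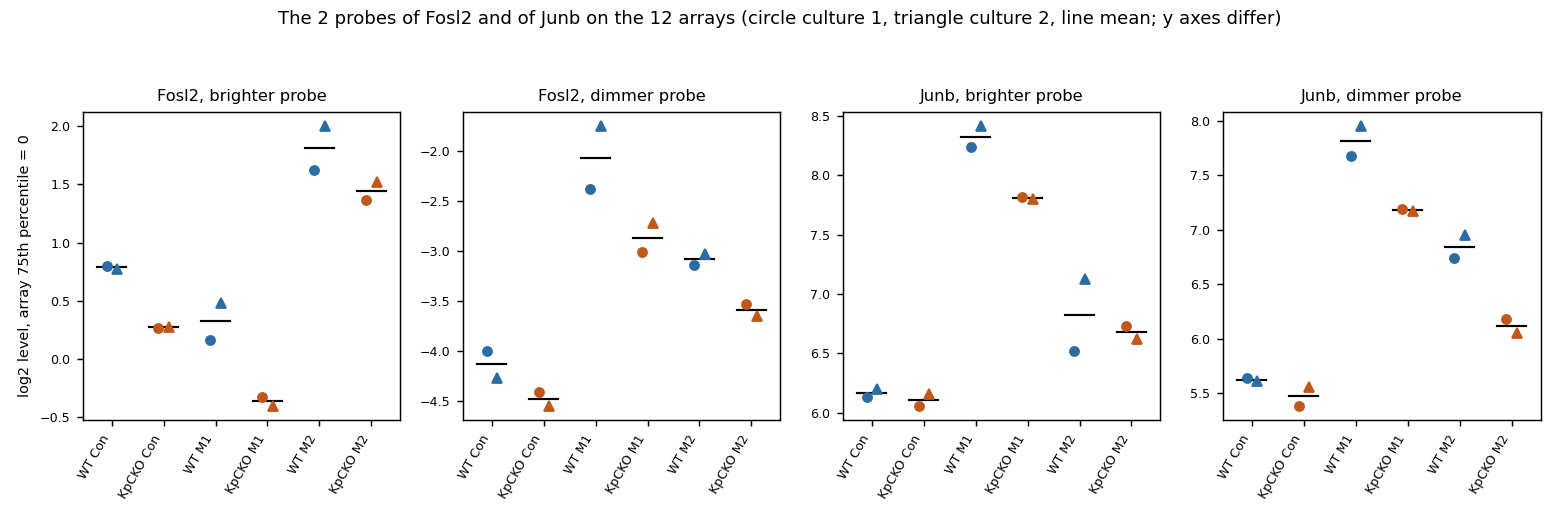
The 2 probes of Fosl2 and of Junb on the 12 arrays (log2 level, array 75th percentile at 0; circles culture 1, triangles culture 2, line the mean of 2). The Fosl2 probes go opposite ways from Con to M1 and the same way from Con to M2, whereas both Junb probes are highest in M1.

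Fosb and Fosl1 (Fra-1) did not pass the test under either stimulus. Fosb lay between -5.94 and -4.75 on all 12 arrays, close to the dimmest signals called above background (-5.58 and -6.01 on the WT M1 arrays), and its M1 differences were 0.46 (95% interval -0.07 to 0.98) in WT and 0.44 (-0.08 to 0.97) in KpCKO. Fosl1 lay between -2.87 and -1.26, with differences of 0.26 (-0.45 to 0.97) in WT and 0.30 (-0.41 to 1.004) in KpCKO.

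M2 stimulation raised 7 members in WT and 4 in KpCKO and lowered Fos in both, with all arrays in the fit. In WT 8 of 10 members passed the test (7 higher and 1 lower; limma adjusted p under 0.05), against 16.8% of all genes (8.63% higher and 8.21% lower). In KpCKO 5 of 10 passed (4 higher and 1 lower), against 10.2% of all genes (5.69% higher and 4.55% lower). The median difference of the 10 members was 0.82 in WT and 0.86 in KpCKO, beside -0.01 and 0.01 for all genes. The counts depended on each single array: 1, 1, 5 and 2 members passed in WT without WT Con replicate 1, WT Con replicate 2, WT M2 replicate 1 and WT M2 replicate 2, and 2, 2, 2 and 1 in KpCKO without KpCKO Con replicate 1, KpCKO Con replicate 2, KpCKO M2 replicate 1 and KpCKO M2 replicate 2. M1 and M2 share their Con arrays, so the likeness of their differences is not independent.

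**Figure D3:**
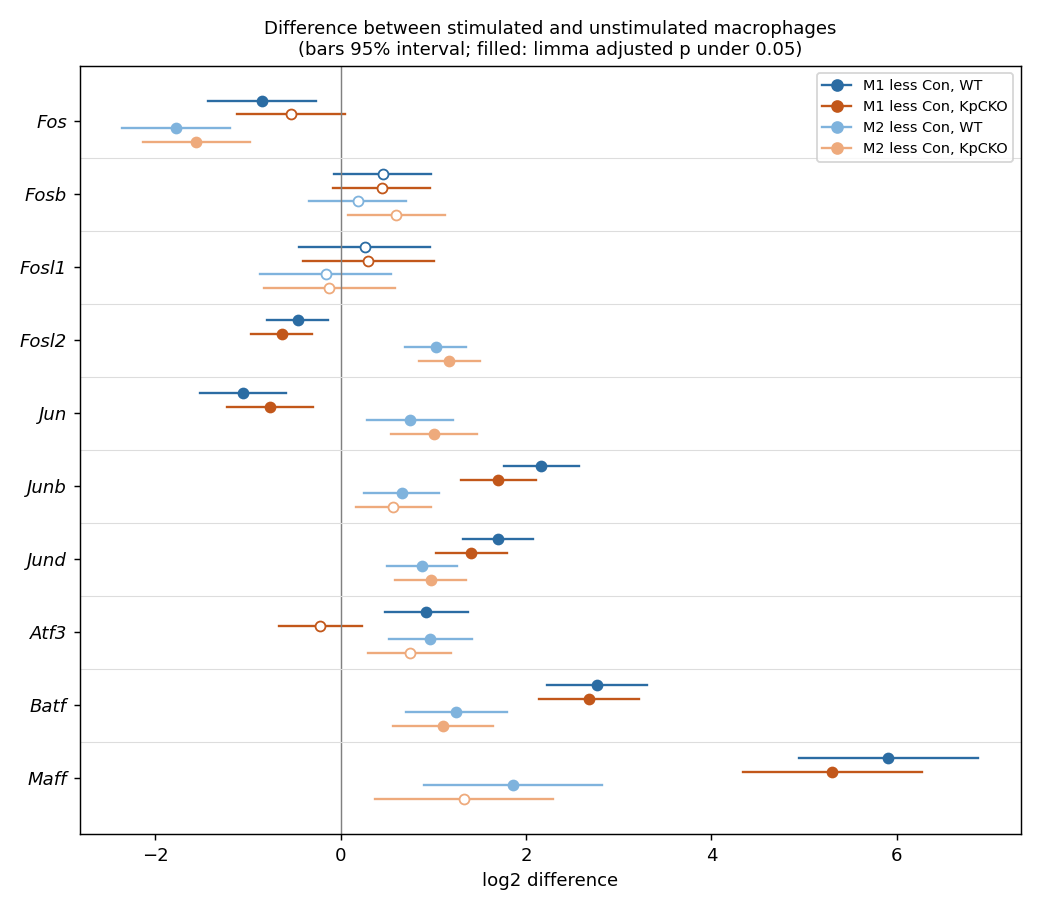
Difference in log2 level between stimulated and Con macrophages for each member, with 95% intervals of the limma fit, where filled points have an adjusted p under 0.05. Fos lies left of 0 under M2 (-1.77 and -1.55), Maff lies at 5.91 and 5.30 under M1, and Jun and the brighter Fosl2 probe lie on opposite sides of 0 under M1 and M2.

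Fos was the member that fell, to 0.38 and 1.57 in WT M2 and to 0.60 and 1.06 in KpCKO M2, below every Con array. This was a fall of 1.77 (SE 0.24), 3.42-fold, in WT (limma adjusted p = 0.00565) and of 1.55 (SE 0.24), 2.94-fold, in KpCKO (adjusted p = 0.0138). Both calls were lost without the culture term (adjusted p = 0.0732 and 0.145). The WT call was also lost without WT Con replicate 1 (-1.62, adjusted p = 0.0519), and the KpCKO call without KpCKO Con replicate 1 (-1.27, adjusted p = 0.0768) or KpCKO M2 replicate 2 (-1.39, adjusted p = 0.0896).

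Jun went the other way from M1. It was 2.80 and 2.97 in WT M2 and 2.99 and 2.91 in KpCKO M2, above every Con array, a rise of 0.75 (SE 0.20) in WT (limma adjusted p = 0.0425) and of 1.01 (SE 0.20) in KpCKO (adjusted p = 0.0249). Over 13 alternatives, without the dimmer probes and the unpaired test, the Jun call held in 6 in WT and in 7 in KpCKO. The direction was the same in all of them. The M2 calls of Fos held in 11 in WT and in 9 in KpCKO. Fosl2 rose by both of its probes. The brighter probe reached 1.62 and 1.999 in WT M2 and 1.37 and 1.52 in KpCKO M2, a rise of 1.02 (SE 0.14) in WT (limma adjusted p = 0.00533) and of 1.17 (SE 0.14) in KpCKO (adjusted p = 0.00544). The dimmer probe reached -3.14 and -3.03 in WT M2 and -3.53 and -3.65 in KpCKO M2, and rose by 1.05 and 0.90 (SE 0.22, adjusted p = 0.0190 and 0.0439).

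Batf, Maff, Jund and Junb, which rose most under M1, were also above Con on each M2 array, by less. In WT their M2 calls held in 9, 10, 9 and 6 of the 13 alternatives. Batf was 0.98 and 1.21 in WT M2 and 0.31 and 0.89 in KpCKO M2, with no overlap with Con, and rose by 1.25 in WT and 1.10 in KpCKO (SE 0.23, limma adjusted p = 0.0139 and 0.0303). Maff was 0.61 and 1.03 in WT M2 and 1.45 and 0.10 in KpCKO M2. It rose by 1.86 (SE 0.41) in WT (limma adjusted p = 0.0249), whereas the KpCKO difference of 1.33 (SE 0.41) missed the threshold (adjusted p = 0.0875). Jund was 5.13 and 5.58 in WT M2 and 5.39 and 5.59 in KpCKO M2, and rose by 0.88 and 0.97 (SE 0.16, limma adjusted p = 0.0139 and 0.0158). Junb by its brighter probe was 6.52 and 7.13 in WT M2 and 6.73 and 6.62 in KpCKO M2, all above the Con arrays, and rose by 0.66 (SE 0.17) in WT (limma adjusted p = 0.0419), with 0.57 (SE 0.17) in KpCKO (adjusted p = 0.0840). The dimmer Junb probe rose by 1.22 in WT and 0.65 in KpCKO (SE 0.12, adjusted p = 0.00204 and 0.0230).

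Atf3 was 6.29 and 6.51 in WT M2 and 7.06 and 6.76 in KpCKO M2, the latter above every other Atf3 array. It rose by 0.97 (SE 0.19) in WT (limma adjusted p = 0.0175), and the KpCKO difference of 0.74 (SE 0.19) fell just short of the threshold (adjusted p = 0.0538). The WT call held in 9 of the 13 alternatives. Fosb and Fosl1 did not pass, with differences of 0.19 and -0.16 in WT and 0.60 and -0.12 in KpCKO.

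M1 and M2 were also compared directly, which leaves out the shared Con arrays. This comparison was added after the data were seen. In WT 7 of 10 members passed the test (5 higher in M1 and 2 lower), against 63% of all genes (33.7% higher and 29.3% lower), and in KpCKO 7 of 10 (4 higher and 3 lower), against 51.4% (24.5% higher and 26.9% lower). Maff was higher in M1 by 4.05 (SE 0.41) in WT and 3.97 (SE 0.41) in KpCKO, Batf by 1.52 and 1.57 (SE 0.23) and Junb by 1.5014 and 1.13 (SE 0.17), each with a limma adjusted p of 0.00153 or less. Fos was higher in M1 than in M2 by 0.93 in WT and 1.02 in KpCKO (SE 0.24, adjusted p = 0.0137 and 0.0116). Jun was lower in M1, with differences of -1.80 in WT and -1.77 in KpCKO (SE 0.20, adjusted p = 0.000231 and 0.000391). Jund was higher in M1 in WT by 0.82 (SE 0.16, adjusted p = 0.00374), but by 0.09 with quantile normalization (adjusted p = 0.629). Atf3 differed by -0.04 (SE 0.19) in WT and by -0.96 (SE 0.19, adjusted p = 0.00499) in KpCKO, but with quantile normalization the WT difference was -0.84 (adjusted p = 0.00282). For Fosl2 the brighter probe gave -1.49 and -1.81 and the dimmer probe 1.02 and 0.72, so the direction again rested on the probe. The counts of this comparison take Fosl2 as lower, by its brighter probe.

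Between genotypes 1 difference of a member passed the test, that of Fosl2 in M1. In Con 0 of 10 members passed limma's test (2 at an unadjusted p under 0.05), against 2.21% of all genes (1.38% higher and 0.828% lower). In M1 1 of 10 passed, which was lower, against 16% (7.43% higher and 8.59% lower). At an unadjusted p under 0.05 limma gave 2 in M1, Fosl2 and Junb, both lower. Of all genes called in M1 46.4% were higher, and 60.02% with quantile normalization. In M2 0 of 10 passed (2 at an unadjusted p under 0.05), against 1.93% (1.28% higher and 0.644% lower). At an unadjusted p under 0.05 the unpaired test that the paper's methods give as their default called 1 member in Con, which was Fosl2. In M1 the same test called Junb, which was lower in KpCKO. For these arrays the paper itself used a change of more than 2-fold in both cultures. The intervals are wide: the 95% interval of the difference in M1 ran from -0.63 to 0.53 for Fos, from -0.37 to 0.56 for Jun and from -1.09 to 0.84 for Maff. A miss of the threshold therefore does not show that the genotypes were alike.

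**Figure D4:**
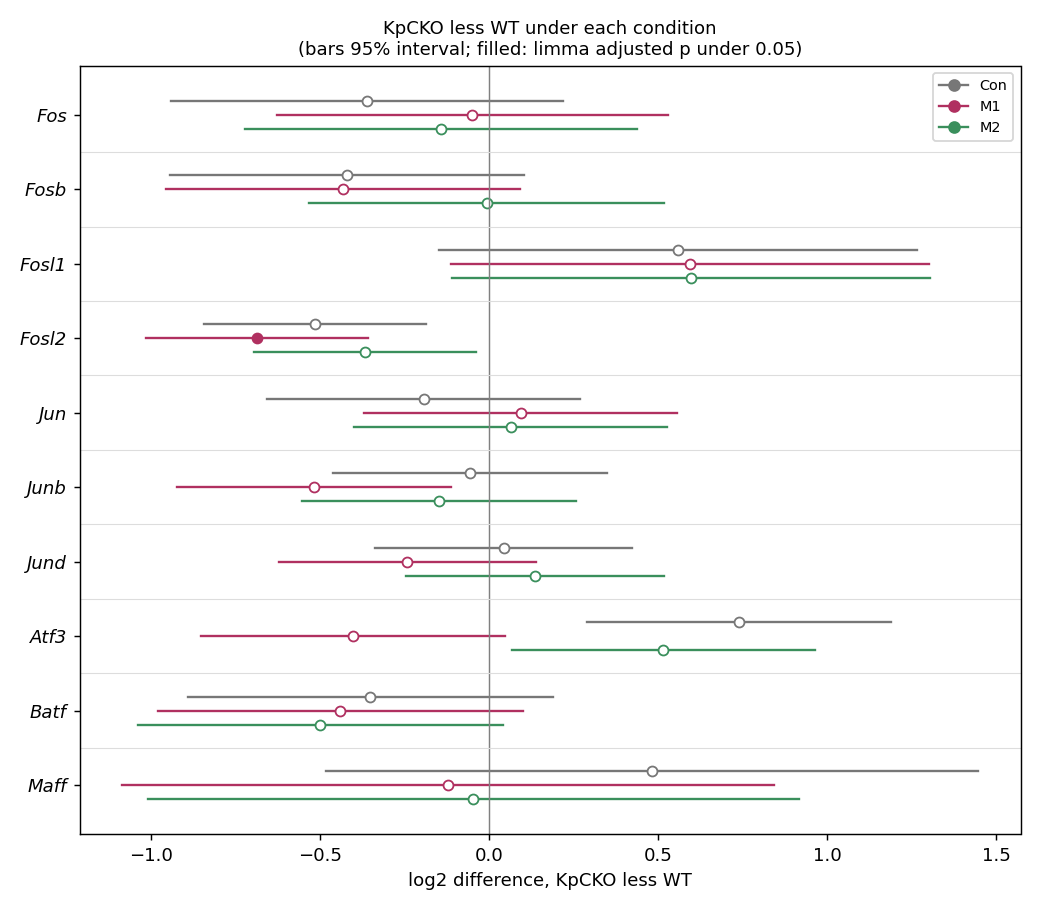
Difference in log2 level, KpCKO less WT, in Con, M1 and M2 for each member, with 95% intervals of the limma fit, where the filled point has an adjusted p under 0.05. Fosl2 lies left of 0 in all 3 conditions, and Atf3 lies at 0.74 in Con, -0.40 in M1 and 0.52 in M2.

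Fosl2 was the member called in M1, and its KpCKO arrays lay below the WT array of the same culture under Con, M1 and M2. The brighter probe differed by -0.52 (SE 0.14) in Con, -0.69 (SE 0.14) in M1 and -0.37 (SE 0.14) in M2, with limma adjusted p of 0.140, 0.0230 and 0.296. The dimmer probe gave -0.35, -0.80 and -0.50 (SE 0.22), with adjusted p of 0.577, 0.0467 and 0.357, so that for this comparison both probes had 1 direction. The M1 call was lost with normexp background correction (adjusted p = 0.0651), with no culture term (adjusted p = 0.0547), in a fit of the M1 arrays alone (adjusted p = 0.188), or without WT M1 replicate 2, KpCKO M1 replicate 1 or KpCKO M1 replicate 2 (adjusted p = 0.113, 0.0620 and 0.0811). Without KpCKO M1 replicate 2 Fosl1 passed instead, higher in KpCKO by 1.07 (adjusted p = 0.0495). With all arrays Fosl1 differed by 0.56, 0.60 and 0.60 (SE 0.30) in Con, M1 and M2.

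Junb differed between genotypes according to the probe. The brighter probe gave -0.06 in Con, -0.52 in M1 and -0.15 in M2 (SE 0.17), with limma adjusted p of 0.957, 0.0834 and 0.784, and the M1 value was -0.23 with quantile normalization (adjusted p = 0.304). The dimmer probe was 7.67 and 7.95 in WT M1 against 7.19 and 7.18 in KpCKO M1, and 6.74 and 6.95 in WT M2 against 6.18 and 6.06 in KpCKO M2, without overlap. Its differences were -0.15 in Con, -0.63 in M1 and -0.73 in M2 (SE 0.12), and the last 2 passed the test (adjusted p = 0.702, 0.0209 and 0.0400). In M1 both probes were lower in KpCKO in both cultures, and in M2 the brighter probe was higher in culture 1 and lower in culture 2.

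Atf3 was higher in KpCKO than in WT in Con, by 0.74 (SE 0.19), and in M2, by 0.52 (SE 0.19), in both cultures and without overlap of the arrays, and gave -0.40 (SE 0.19) in M1, with limma adjusted p of 0.125, 0.282 and 0.182. Batf gave -0.35, -0.44 and -0.50 (SE 0.23) in Con, M1 and M2, below 0 in both cultures each time, with adjusted p of 0.599, 0.217 and 0.387. For the difference of the M1 response between genotypes 0 of 10 members passed limma's test (1 at an unadjusted p under 0.05, which was Atf3), against 0.0716% of all genes (0.0447% higher and 0.0268% lower). For the M2 response 0 of 10 passed (0 at an unadjusted p under 0.05), against 0.00895%.

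Summed levels of some marker lists differed between groups. The summed level of the 7 matched dendritic cell markers, on the linear scale with the array's 75th percentile at 1, was 1.70 and 1.72 in WT Con against 15.2 and 8.05 in KpCKO Con, 7.88 and 7.81 in WT M1 against 19.9 and 13.9 in KpCKO M1, and 6.02 and 8.93 in WT M2 against 27.2 and 17.7 in KpCKO M2. Of these 7, Itgax, which macrophages also express, was called higher in KpCKO in Con (2.99) and M1 (1.37), and Xcr1, a marker of conventional dendritic cells, was called lower in M1 (-1.05). In M2 limma called 0 of the 7 between genotypes, against 1.93% of all genes. In the same order of groups 4, 6, 5, 5, 6 and 6 of the 7 were flagged above background on both arrays. The summed level of the 8 macrophage markers was 587 and 643 without stimulus in WT against 407 and 470 in KpCKO. Under M1 it was 836 and 1044 against 561 and 663, and under M2 533 and 586 against 438 and 474, so that KpCKO was the lower each time, with 2, 5 and 2 of the 8 called lower. The T and NK cell sum was 14.7 and 11.0 in WT Con and 4.59 and 4.98 in WT M1. In KpCKO it was 24.2 and 12.2 in Con and 8.13 and 3.78 in M1. The list did not share this fall, since 4 of its 5 tested genes had a difference above 0 in each genotype. Limma called 2 of them higher and 1 lower in M1 than in Con in each genotype. These were 60% of those tested, against 63.2% of all genes in WT and 50.2% in KpCKO. The stromal sum was 36.2 and 42.5 in WT Con against 55.3 and 29.1 in KpCKO Con, so the cultures went opposite ways. Between genotypes in Con limma called 0 of the 6 stromal genes tested and 0 of the 5 T and NK cell genes. Of all genes 2.21% passed there. Each sum adds levels of different probes and is led by the brightest. The part of any of these lists in the members' differences was not tested.

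The other bZIP genes, the dimer partners and relatives of the members, were followed as a list of 36 symbols, from which 32 genes were tested. Atf7 had no entry of its own and was matched to Atf5, which is also on the list. Under M1 16 rose and 5 fell in WT (limma adjusted p under 0.05), and 14 rose and 8 fell in KpCKO. These were 65.6% and 68.8% of the list, against 63.2% and 50.2% of all genes, the background for M1 in each list that follows. Batf2, a close relative of Batf, rose by 7.03 (SE 0.31) in WT and 7.54 in KpCKO, Jdp2, a dimerising repressor of Jun, by 2.95 (SE 0.19) and 3.52, and Creb5 by 3.24 (SE 0.20) and 2.88. Cebpa, a myeloid differentiation factor, fell by 4.89 (SE 0.24) in WT and by 2.38 in KpCKO. The small Maf genes Mafk and Mafg rose along with Maff, by 2.25 and 0.44 in WT and by 1.65 and 0.59 in KpCKO. Nfe2l2, which encodes Nrf2, rose by 1.13 and 0.997, Atf4 by 1.32 and 1.61 and Cebpb by 1.53 and 1.40, whereas Bach1 gave -0.29 and 0.25 and did not pass.

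Under M2 4 of the 32 rose and 3 fell in WT, and 4 rose and 1 fell in KpCKO, which were 21.9% and 15.6% of the list against 16.8% and 10.2% of all genes. Batf3, a Batf relative known for its part in dendritic cell development, rose by 5.23 (SE 0.41) in WT and 4.54 in KpCKO, Nfe2 by 2.26 (SE 0.37) and 1.64, and Maf fell by 1.33 (SE 0.27) and by 1.43 (limma adjusted p = 0.000904, 0.0100 and 0.0202 in WT). Between genotypes in M1 4 were higher and 7 lower in KpCKO (34.4% of the list against 16% of all genes). Cebpa was higher by 2.81 (SE 0.24), and Maf, Cebpd and Crem differed by -1.84, -1.44 and -1.07. In Con Nfe2 alone of the list passed, higher by 2.07 (SE 0.37, limma adjusted p = 0.0443), and in M2 none did (5 at an unadjusted p under 0.05). Of all genes 2.21% passed in Con and 1.93% in M2.

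The immediate early genes outside AP-1, with their serum response factors, were a list of 25, of which 22 were tested. Under M1 11 rose and 5 fell in WT (72.7% of the list), and 7 rose and 6 fell in KpCKO (59.1%). Gadd45b rose by 3.79 (SE 0.23) in WT and 2.31 in KpCKO, while Myc fell by 2.08 (SE 0.21) and by 1.37, Egr1 fell by 0.77 and by 1.05, and Srf fell by 0.69 and by 0.68. Under M2 9 rose and 2 fell in WT (50% of the list), and 8 rose and 0 fell in KpCKO (36.4%), above the 16.8% and 10.2% of all genes. Egr2, a zinc finger factor, rose by 5.09 (SE 0.48) in WT and 2.50 in KpCKO, Myc by 2.31 and 2.25 (SE 0.21), and Srf by 0.75 and 0.68. Egr1 rose by 1.08 in WT (limma adjusted p = 0.0120), with 0.76 in KpCKO (adjusted p = 0.0503). Between genotypes in M1 2 were higher and 9 lower in KpCKO (50% of the list against 16% of all genes), with a median difference of -0.44 beside -0.09 for all genes and -0.32 for the 10 members. Nr4a1, Btg2 and Ier2 differed by -2.78, -1.78 and -1.66 (limma adjusted p = 0.0151, 0.00186 and 0.00182), and Egr2 by 2.08 (adjusted p = 0.0335), after 2.98 in Con (adjusted p = 0.0326).

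Of the MAP kinase cascade that leads to AP-1, 27 of 28 listed genes were tested. Under M1 10 rose and 9 fell in WT (70.4% of the list) and 10 rose and 6 fell in KpCKO (59.3%), near the background. Mapkapk2 rose by 2.08 (SE 0.19) in WT and 1.74 in KpCKO, whereas Mapk14, the p38 alpha kinase, fell by 2.40 (SE 0.20) in WT and Map2k6, a kinase that activates p38, was not well above background in WT M1, at least 6.12-fold lower than in Con. Under M2 2 rose and 4 fell in WT and 2 rose and 1 fell in KpCKO, with Mapkapk3 higher by 1.31 and 1.15 (SE 0.19). These were 22.2% and 11.1% of the list, against 16.8% and 10.2% of all genes. Between genotypes in M1 4 were higher in KpCKO, among them Mapk14 by 1.44 (SE 0.20), and 2 lower (22.2% of the list against 16% of all genes). In Con and M2 limma called 0 (1 and 2 at an unadjusted p under 0.05), against 2.21% and 1.93% of all genes.

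The phosphatases that turn MAP kinases off were a list of 12, of which 11 were tested. Under M1 4 rose and 4 fell in WT (72.7% of the list) and 4 rose and 5 fell in KpCKO (81.8%). Dusp2 rose by 6.07 (SE 0.43) in WT and 3.78 in KpCKO, and in M1 it differed between genotypes by -2.08 (limma adjusted p = 0.0251). Dusp4 rose under M2 by 2.45 (SE 0.22) in WT and 1.76 in KpCKO. Dusp1 did not pass in any of these comparisons between 2 groups, with -0.46 in WT and -0.98 in KpCKO under M1.

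Of 20 textbook AP-1 target genes 17 were tested. Under M1 11 rose and 1 fell in WT (70.6% of the list) and 10 rose and 1 fell in KpCKO (64.7%), and under M2 1 rose and 1 fell in WT and 2 rose and 1 fell in KpCKO. The M2 shares were 11.8% and 17.6% of the list, against 16.8% and 10.2% of all genes. Il6, which encodes the cytokine IL-6, rose by 13.17 (SE 0.49) in WT and 9.72 in KpCKO under M1, and Mmp13, a collagenase, by 7.39 (SE 0.32) in WT and 3.41 in KpCKO. Between genotypes in M1 2 were higher and 4 lower in KpCKO (35.3% of the list against 16% of all genes). Mmp13, Il6 and Il1b differed by -3.51, -3.21 and -2.96 (limma adjusted p = 0.00182, 0.0100 and 0.00104), and Mmp12, a macrophage elastase, was higher by 3.20 (adjusted p = 0.00360). Il1b and Mmp12 also differed without M1, by -2.95 and 4.05 in Con and -2.99 and 4.03 in M2. Between genotypes in Con 1 of the list was higher and 1 lower (11.8% against 2.21% of all genes). In M2 2 were higher and 2 lower (23.5% against 1.93%). Il6 and Il1b are genes that the study itself singled out on these samples, so they are not independent evidence of a direction for the list. Ccl2, a monocyte chemoattractant, rose under M2 by 2.92 (SE 0.12) in WT and 2.14 in KpCKO.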

How the data were processed

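RNA from BMDMs was labelled with Cy3 and hybridised to 1 Agilent array a sample. Per the file headers, Feature Extraction gave each of 43379 spots a processed intensity, which is background-subtracted, and a flag for signal well above background. The authors also deposited a table of log2 values, normalized in GeneSpring, which matched the scanner values to slopes of 0.999623 to 1.00036 over 40749 probes and served as an alternative.

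The log2 intensity minus the array's 75th percentile was computed from the deposited files, with spots of a probe averaged and the brightest probe standing for a gene. Genes were named through the printed gene name or accession. Of 32301 genes or transcripts, 22354 were tested, for which some group had a signal flagged above background on each of its arrays. All 12 arrays were fitted together in limma 3.58.1 (R 4.3.3) with 6 groups and culture as a block, and p-values were Benjamini-Hochberg adjusted over all genes tested, with a threshold of 0.05. An SE or 95% interval is that of the fit. A gene not above background on both arrays of a group was given a fold only as a bound. The fit was tested on simulated data.

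The sample titles give a replicate number, which was taken to name the culture. The residuals of arrays of the same culture correlated at 0.162 to 0.597 over 15 pairs of groups. Replicates correlated at 0.985 to 0.992. Precision is limited by 2 arrays a group. Alternatives were normexp background correction, quantile normalization, other filters, the mean of a gene's probes, no culture block, another variance model, the compared groups alone, the authors' table, the methods' unpaired test and leaving out each array. The dimmer probes and the M1 against M2 comparison were added after seeing the data.

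All members were named. For each list of related genes the text drew on the genes of largest change among those that passed and changed over 2-fold in both cultures, and on relatives chosen by name. Members and lists were chosen with earlier results of these data known. Promoter sequences are RefSeq's, GRCm38.p6. 1 gene of the lists is not reported here by name.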

Additional observations from a re-analysis of the deposited data

How the results depend on the processing

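Counts of members that passed depended on the test and on single arrays. In M1 against Con 8 passed in WT, with 6 to 8 when each array was left out, 4 with the methods' unpaired test after adjustment and 5 at its unadjusted threshold, and 6 passed in KpCKO, with 4 to 6 and 0. In M2 against Con 8 passed in WT and 5 in KpCKO, but with no replicate block 5 and 2, with an array left out 1 to 5 and 1 to 2, and with the methods' unpaired test after adjustment 0 and 0. That test called 5 in WT at its unadjusted threshold, and the KpCKO groups fitted alone gave 0. Between genotypes in M1 1 member passed, but 0 with normexp, with no replicate block, in the compared groups alone or in the methods' adjusted test, 2 with the mean of probes, the trend and robust variance model or the dimmer probes, and 0 to 1 with an array left out. At its unadjusted threshold the methods' test called Junb in M1. In Con 0 passed and the methods' unadjusted test called 1, and in M2 0 passed and the dimmer probes gave 1. The direction of Fosl2 in M1 against Con turned with the probe, to 0.80 (mean of probes) and 2.07 (dimmer probe) in WT and 0.49 and 1.62 in KpCKO, and in M1 against M2 to 1.02 and 0.72 with the dimmer probe. Both probes are described with the results. For the 42 differences of single members that passed, 672 values under an alternative were computed, of which 534 still passed in the same direction, 132 did not pass and 6 reversed. Of the 1128 values of the differences that had not passed, 20 passed and 67 changed sign without passing. The cause of these changes was not tested. Quantile normalization moved the median of all genes in M1 against Con in WT from 0.13 to -0.08, and of the genes called 45.2% rather than 54.6% were higher. With 2 arrays a group small differences cannot be resolved.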

Other observations

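Some genes followed single members closely across the 12 arrays, among 14460 genes searched. These correlations are descriptions, since the arrays share their groups. Ifrd1 followed Maff with a Pearson r of 0.995, Gvin1 followed Batf with 0.993, and Stip1 followed Junb with 0.989. Vdr, the vitamin D receptor gene, followed Jund with 0.989, and Bhlhe40, a basic helix-loop-helix repressor gene, followed Atf3 with 0.930. Among the members themselves r was 0.964 for Junb and Batf and 0.963 for Junb and Maff over the 12 arrays, and -0.686 for Fos and Atf3.

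On chromosome 12 Jdp2 is the 1 protein-coding gene between Fos and Batf in RefSeq. Of these 3 neighbours, Batf and Jdp2 rose under M1 in WT by 2.76 and 2.95, while Fos fell by 0.85.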
